A study of Mus musculus with 11 samples.

Results

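Gpnmb-rich spots at 48 h after acetaminophen are the tissue spots of mouse liver in which transcripts of Gpnmb took the largest share of all transcripts counted. They were chosen by that measurement alone: within each of the 4 sections taken at 48 h, the top 10% of spots by Gpnmb UMIs (unique molecular identifiers, one per captured transcript) per 10000 UMIs were called Gpnmb-rich, and the bottom 50% were called Gpnmb-poor. This gave 1002 Gpnmb-rich spots of 10006 at 48 h and of 25136 in the whole series: 347 of 3466 in section A, 149 of 1490 in section B, 263 of 2629 in section C and 243 of 2421 in section D. The Gpnmb-poor class held 5004 spots, and the remaining spots formed a middle class.

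GPNMB is a transmembrane glycoprotein of endosomes and lysosomes. It is made by macrophages that are digesting lipid-rich or cellular debris, and in many tissues it marks macrophages that also carry the lipid receptor Trem2. Its transcription is known to be driven by the MiT/TFE family of factors, which also switch on genes for lysosomal enzymes. In the acetaminophen-injured liver, hepatocytes around the central vein die first, resident macrophages (Kupffer cells) become fewer in the dead area, and monocytes recruited from blood turn into macrophages that clear it while neighbouring hepatocytes divide.

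The series comprised 11 frozen liver sections, of which 3 were labelled uninjured (0 h). Of the injured sections 2 were taken at 24 h, another 2 at 36 h and the last 4 at 48 h; they carry the disease label POD and the series text names an APAP (acetaminophen) time course. Wild-type mice for such experiments were of the C57BL/6JCrl strain, young adults and male unless stated otherwise, and acetaminophen was injected intraperitoneally after a fast; the labels give no strain, age or sex for a section. The methods also give 1 mouse per time point for this assay, so sections of one time are treated here as repeated samplings whose spread may be technical, and the p-values cover no spread between animals. A spot is a small disc of tissue that can hold several cells of different types, so that more cells of a type and more transcripts per cell cannot be told apart.

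Total UMIs in spots that passed the filters ranged from 31292663 to 67045372 per section, and from 43600556 to 60856876 at 48 h. Gpnmb itself was almost absent from uninjured liver, with 0, 4 and 3 UMIs in the 3 sections at 0 h. It gave 363 and 301 UMIs in the 24 h sections, 1067 and 1383 in the 36 h sections, and 6993, 5278, 15750 and 10202 in sections A to D at 48 h. The share of spots with a Gpnmb UMI was 0% to 0.149% in uninjured sections, 12.2% and 14.9% after 24 h, 28.4% and 36.4% after 36 h, and 58.1%, 70.8%, 85.9% and 78.1% in sections A to D after 48 h. These values, and the class levels that follow from the choice of spots, are a description and were not tested.

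In the Gpnmb-rich spots the median Gpnmb level was 4.72, 5.49, 10.7 and 7.56 UMIs per 10000 in sections A to D. The lowest Gpnmb-rich spot of section A stood at 3.028 and the highest spot left outside at 3.024 UMIs per 10000, and the corresponding pairs were 3.688 and 3.686 in section B, 7.191 and 7.177 in section C, and 4.865 and 4.857 in section D. Section C therefore had the strictest threshold, and 28.1% of its Gpnmb-poor spots held no Gpnmb UMI against 83.7%, 58.4% and 43.8% in sections A, B and D. The Gpnmb-rich class is a range of one continuous measure and not a cell type, and no staining image was used here to place the spots within or outside dead tissue.

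Gpnmb-rich spots were not deeper in every section but held more genes in all 4. Median UMIs per spot were 19993, 27696, 24263 and 23880 in Gpnmb-rich spots and 17502, 27863, 23132 and 26485 in Gpnmb-poor spots. Median genes per spot were 4982, 5853, 5522 and 5480 against 3803, 4827, 4381 and 4706. The median mitochondrial share was lower in Gpnmb-rich spots of each section, at 1.69%, 1.57%, 1.32% and 1.16% against 2.86%, 2.72%, 2.36% and 2.02%.

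Gpnmb-rich spots lay in small patches spread over each section. Of the up to 6 neighbours of a Gpnmb-rich spot on the hexagonal grid, 26.7%, 26.4%, 27.5% and 27.4% were Gpnmb-rich in sections A to D, against 8.07% to 8.15% of the neighbours of other spots. The Gpnmb-rich spots formed 146, 68, 102 and 100 patches, of which the largest held 13, 8, 18 and 12 spots. Between 19.0% and 22.1% of Gpnmb-rich spots had no Gpnmb-rich neighbour, and between 33.7% and 39.9% were in patches of 5 or more.

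**Figure D1:**
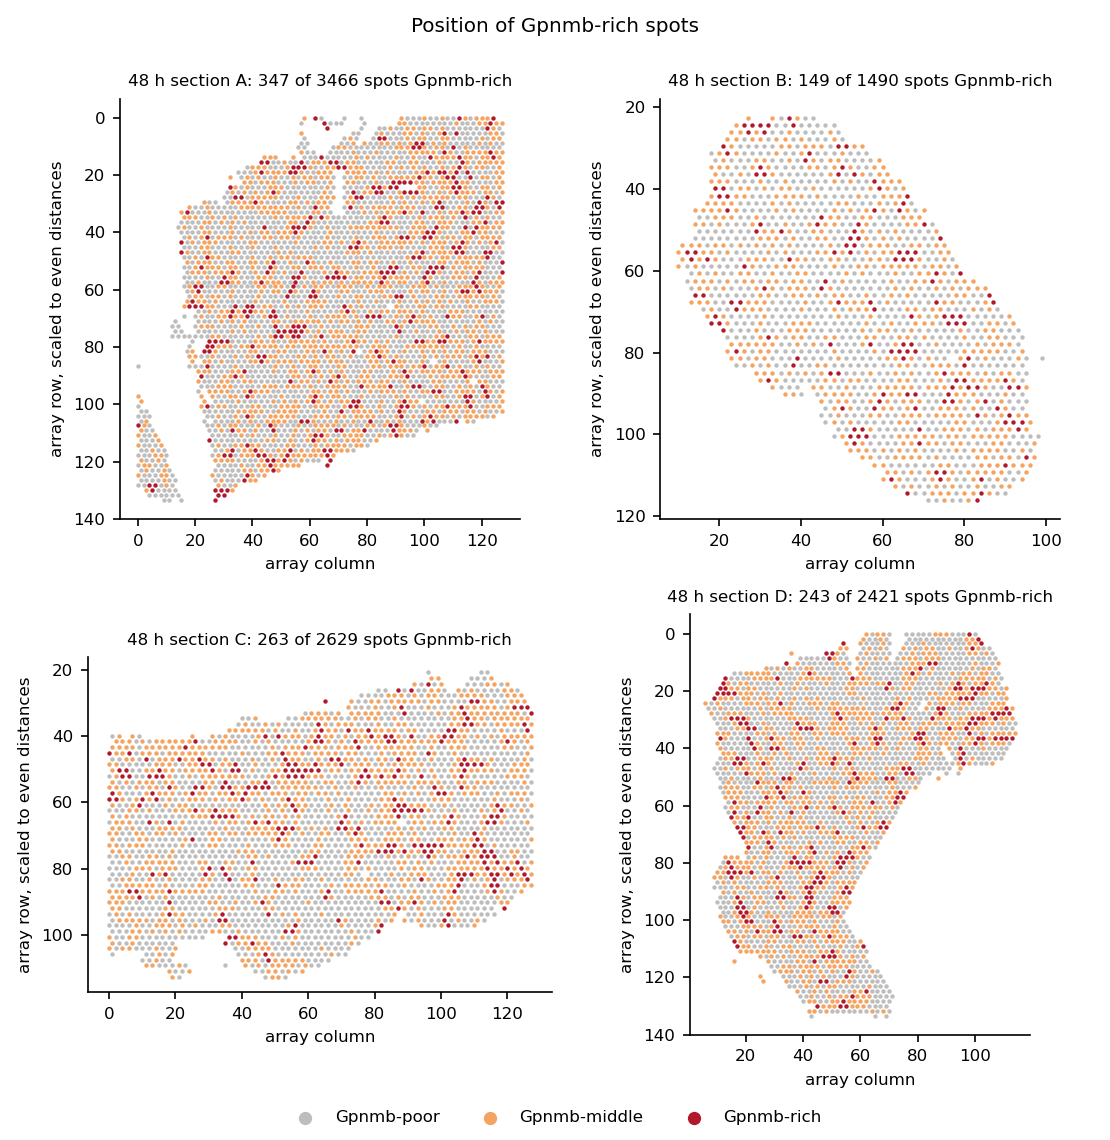
Position of the spots of the 4 sections at 48 h on the capture array, with array column across and array row (scaled to keep distances even) down; each point is 1 spot coloured by Gpnmb class. Dark red Gpnmb-rich spots form many short strings and small clumps across every section, the largest of 13, 8, 18 and 12 spots in sections A to D.

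The first comparison asked which other genes differed between Gpnmb-rich and Gpnmb-poor spots of the same section. UMIs were summed per section and class, Gpnmb was removed, and the 8 sums were compared with edgeR's quasi-likelihood test with section as a block and Benjamini-Hochberg adjustment over all genes tested; a call means an adjusted p under 0.05. Differences below are log2 values of Gpnmb-rich over Gpnmb-poor ± SE over 4 sections, and levels are CPM (TMM-scaled UMI counts per 1000000). Of 13022 genes tested, 9074 (69.7%) were called, 4574 (35.1%) of them higher and 4500 (34.6%) lower in Gpnmb-rich spots, so the counts of any gene list need to be read against these shares. A total of 1949 genes were higher and 1459 lower by at least 2-fold. Scaling by total UMIs alone moved the median of all genes from 0.0019 to 0.55 and gave 8691 higher and 1859 lower (82.4% of calls higher, against 50.4%), so changes are given relative to the median gene. The classes did not overlap for 26.6% of genes on the higher side and 25.4% on the lower side. A gene entered the test when either class reached the count minimum, so rare-cell lists include genes that could enter through one class only.

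Genes of lipid-associated macrophages rose as a group: 24 of 26 tested genes were higher and 1 was lower, with a median difference of 2.08. Trem2, a lipid receptor, stood at 137, 133, 244 and 193 CPM in the Gpnmb-rich spots of sections A to D and at 25.1, 21.0, 43.9 and 24.1 CPM in the Gpnmb-poor spots. The classes did not overlap, and the difference was 2.64 ± 0.09 (adjusted p = 1.09e-12). Lgals3 (galectin-3), which binds damaged lysosomes, was at 1050, 938, 1709 and 1098 CPM against 186, 124, 293 and 144 CPM, a difference of 2.72 ± 0.09 (adjusted p = 9.60e-13). Spp1 (osteopontin) was at 521, 734, 1038 and 725 CPM against 149, 214, 407 and 265 CPM, again without overlap, and differed by 1.60 ± 0.08 (adjusted p = 7.77e-11). The lipase Lpl differed by 2.51, the fatty acid receptor Cd36 by 2.28, the fatty acid carrier Fabp5 by 1.87 and the Trem2 adaptor Tyrobp by 2.07. Apoe, which hepatocytes also make in quantity, was the member that fell: it was at 10210, 9703, 9599 and 11340 CPM in Gpnmb-rich and at 17500, 17070, 17360 and 17150 CPM in Gpnmb-poor spots (-0.76 ± 0.08, adjusted p = 3.86e-07). At 0 h Trem2 was at 0.54 to 1.09 UMIs per 1000000 in a section, and at 48 h sections A to D as a whole had 44.5, 44.3, 88.6 and 58.6.

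Lysosomal genes were mostly higher. Of 43 tested, 31 were higher and 5 lower, with a median of 0.65; with total-UMI scaling 42 were higher and 1 lower. Among 9 cathepsins, the proteases of the lysosome, 7 were higher and 2 lower. The aspartic protease Ctsd stood at 1496, 1543, 2559 and 2190 CPM against 562, 452, 755 and 582 CPM and differed by 1.72 ± 0.08 (adjusted p = 4.06e-11). Its classes did not overlap. Ctss differed by 2.48 and Ctsb by 1.57, whereas Ctsl was lower by TMM scaling (-0.24, adjusted p = 0.0054) and higher by total-UMI scaling (0.31). Of 12 glycosidases and lipases 8 were higher and 1 lower, among them Gla (alpha-galactosidase) with 17.6, 18.3, 30.6 and 16.9 CPM against 5.03, 5.75, 8.58 and 4.48 CPM (1.81 ± 0.10, adjusted p = 9.71e-11). Of 8 subunits of the proton pump that acidifies the lysosome, 7 were higher and none lower, including Atp6v1b2 at 1.44. The saposin precursor Psap differed by 1.81. Of 7 membrane proteins 3 were higher and 1, Lamp2, was lower, at 239, 237, 226 and 247 CPM against 489, 452, 458 and 449 CPM (-0.96 ± 0.07, adjusted p = 1.92e-09).

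All 4 MiT/TFE factors were called higher, with a median of 0.78: Tfec by 1.0, Mitf by 0.93, Tfeb by 0.63 and Tfe3 by 0.32. The Tfe3 call was lost when section C was left out (0.19, adjusted p = 0.121). These factors bind the letters TCACGTG or TCATGTG. The 250 bases before the start of 3 genes are shown to place those letters beside the values. They are Gpnmb, which defined the spots, and Ctsd and Gla, lysosome genes that were called higher. Ctsd and Gla were picked for holding the letters at 2 or more places, so they do not stand for the list. The sequences are from RefSeq, GRCm38.p6, written 5′ to 3′ on the gene's strand, with capitals for the motif on either strand and overlapping matches joined.
Gpnmb, chr6:49036268-49036517 (+): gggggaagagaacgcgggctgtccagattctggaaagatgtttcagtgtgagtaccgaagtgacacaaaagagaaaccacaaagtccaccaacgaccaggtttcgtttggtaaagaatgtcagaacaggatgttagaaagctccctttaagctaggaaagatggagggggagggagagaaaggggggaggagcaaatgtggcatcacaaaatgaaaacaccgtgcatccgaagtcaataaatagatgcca
Ctsd, chr7:142387828-142388077 (-): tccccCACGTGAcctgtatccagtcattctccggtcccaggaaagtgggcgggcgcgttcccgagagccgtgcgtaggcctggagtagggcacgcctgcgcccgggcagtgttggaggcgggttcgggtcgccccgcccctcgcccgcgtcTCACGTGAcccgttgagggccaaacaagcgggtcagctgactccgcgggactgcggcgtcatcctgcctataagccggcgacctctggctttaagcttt
Gla, chrX:134601006-134601255 (-): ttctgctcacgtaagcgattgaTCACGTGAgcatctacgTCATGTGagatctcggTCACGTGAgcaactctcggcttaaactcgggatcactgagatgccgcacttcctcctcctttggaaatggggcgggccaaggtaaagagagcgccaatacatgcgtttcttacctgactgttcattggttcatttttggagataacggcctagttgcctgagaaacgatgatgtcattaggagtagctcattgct

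The Ctsd stretch held the motif at 2 places, 245 and 99 bases before the start, and the Gla stretch at 3 places, 228, 211 and 195 bases before it. The Gpnmb stretch held neither form in this window. The counts that follow were made over the whole promoter entry of each gene and were not cut to these 250 bases. Of 27025 mouse genes with an entry, 8.40% held either form, 4.29% TCACGTG and 4.31% TCATGTG. Of the 43 tested lysosome genes 34 had an entry, and 16 of these held either form. These were 12 of the 25 called higher and 4 of the 9 not called higher. The rest held neither. Because fewer than 80% of the list had an entry, a check of the list against all genes is void. A match is a match of letters and was not tested as a binding site.

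Genes for the clearance of dead cells and for antigen presentation also stood higher. Of 23 clearance genes 17 were higher and 2 lower (median 1.3), with the complement component C1qb at 1.68, the engulfment receptor Axl at 1.57 and its relative Mertk at 0.85. All 13 tested genes of dendritic cells and MHC class II were higher (median 1.69; H2-Ab1 by 1.60). Of 8 tested surface partners of GPNMB 4 were higher and 2 lower (median 0.38): Cd44 rose by 2.06, whereas Sdc4 (-0.94) and Egfr (-1.22) fell. Hmox1, which breaks down haem, was at 236, 194, 287 and 167 CPM against 37.9, 34.8, 44.2 and 27.5 CPM (2.61 ± 0.07, adjusted p = 5.90e-13), without overlap, and 7 of 12 genes of iron and haem handling were higher and 5 lower. Of 14 glycolysis genes 8 were higher and 2 lower (median 0.63), led by Pkm at 2.18.

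General markers of mononuclear phagocytes were higher without exception, 13 of 13 with a median of 1.93. Lyz2 (lysozyme) was at 1485, 1934, 2540 and 3479 CPM against 238, 251, 412 and 428 CPM, and the lysosomal glycoprotein Cd68 at 273, 274, 498 and 341 CPM against 54.6, 43.2, 92.5 and 54.0 CPM. Neither gene's classes overlapped, and the differences were 2.81 and 2.52. With every spot thinned to 5000 UMIs, at least 1 Trem2 UMI was seen in 55.6%, 57.0%, 73.6% and 66.9% of Gpnmb-rich spots and in 12%, 8.47%, 15.2% and 8.7% of Gpnmb-poor spots. Epcam, a bile duct gene, was seen in at most 0.7% and 1.2% of the spots of either class at that depth.

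Markers of recruited monocytes and of resident Kupffer cells both stood higher, with medians of 2.44 and 0.87. Of 14 monocyte genes 12 were higher and 2 lower, with F13a1 at 3.10, Chil3 at 3.0, S100a4 at 2.94 and the chemokine receptor Ccr2 at 2.48; the other two, Arg1 (-1.83) and Fn1 (-0.88), are also made by hepatocytes and fell. Csf1r, the receptor for macrophage colony-stimulating factor, differed by 1.51. Of 12 Kupffer cell genes 10 were higher and 2 lower. Clec4f, a lectin restricted to Kupffer cells, was at 153, 150, 208 and 249 CPM against 100, 126, 174 and 170 CPM. Its classes overlapped between sections although each section was higher in its Gpnmb-rich spots, and the difference was 0.42 ± 0.07 (adjusted p = 0.000124). Cd5l, a secreted macrophage protein, was at 402, 442, 662 and 520 CPM against 158, 179, 289 and 194 CPM, a difference of 1.32 ± 0.07. Vsig4 differed by 1.13 and the phosphatidylserine receptor Timd4 by 0.83, whereas the complement gene C6, which hepatocytes also express, fell (-1.47).

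Other leukocyte genes moved the same way. Of 13 neutrophil genes 9 were tested, and 8 of these were higher and 1 lower (median 2.13, S100a9 by 2.12). Of 19 lymphocyte genes 12 were tested, and 10 of these were higher with none lower (median 1.47, the B cell gene Cd79b by 1.76). A gene could enter the test through its Gpnmb-rich sums alone, so these counts follow in part from the filter. The summed lymphocyte list was low in both classes, at 48.4 to 101 UMIs per 1000000 in Gpnmb-rich and 19.4 to 29.6 in Gpnmb-poor spots. The summed neutrophil list was at 299, 297, 454 and 202 against 68.1, 70.0, 98.6 and 118 UMIs per 1000000.

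Chemokine genes included Ccl7, first of the 15 genes with the largest rise by the naming rule. Of 23 tested 19 were higher and 2 lower (median 1.96). Ccl7, which attracts monocytes, was at 164, 167, 96.8 and 77.3 CPM in Gpnmb-rich and at 17.5, 14.2, 13.6 and 6.70 CPM in Gpnmb-poor spots, a difference of 3.27 ± 0.10 (adjusted p = 7.33e-13) without overlap. Ccl2, its close relative, was at 183, 248, 113 and 78.4 CPM against 37.1, 32.7, 21.2 and 10.6 CPM and differed by 2.62 ± 0.10. Sections A and B were higher than C and D for both genes. Pf4 (2.97) and Ccl6 (2.62) also rose, and the neutrophil attractant Cxcl1 fell (-0.91). Of 23 growth factor and cytokine genes 14 were higher and 6 lower (median 0.86): Tgfb1 rose by 1.83, and Igf1 (-0.90) and Vegfa (-1.62) fell.

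Matrix genes were also higher in Gpnmb-rich spots. Of 26 genes of myofibroblasts and fibrillar matrix 24 were higher and 2 lower (median 1.92). Col1a1, a chain of collagen I, was at 355, 472, 930 and 946 CPM against 54.5, 56.6, 159 and 123 CPM and differed by 2.81 ± 0.09 (adjusted p = 7.33e-13). Acta2, the smooth muscle actin of myofibroblasts, was at 160, 233, 224 and 226 CPM against 35.8, 25.4, 41.6 and 38.1 CPM (2.57 ± 0.15, adjusted p = 3.57e-07). Neither gene's classes overlapped, and for Col1a1 sections C and D were higher than A and B in both classes. Col3a1 differed by 2.14, the collagen cross-linker Lox by 2.95, Cthrc1 by 3.25 and Ltbp2 by 2.89. Of 10 basement membrane genes 9 were higher (median 1.27), of 15 proteases and inhibitors 14 were higher and 1 lower (median 1.89; Adam8 by 3.17, Timp1 by 2.32 and the macrophage elastase Mmp12 by 2.30), and of 12 stellate cell and mesenchymal genes 8 were higher and 2 lower (median 0.23). Of 5 mesothelial genes 3 were higher and none lower.

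The vessels gave a split picture. Of 13 sinusoidal endothelial genes 7 were higher and 3 lower (median 0.19), with the pan-endothelial Pecam1 at 1.01 and the sinusoidal lectin Clec4g at -0.96. Of 14 genes of the central vein and its surroundings 8 were higher and 3 lower (median 0.80). Rspo3, a Wnt amplifier made by central vein endothelium, was at 18.7, 22.6, 23.1 and 26.6 CPM against 4.35, 4.52, 5.87 and 5.71 CPM, a difference of 2.14 ± 0.10 (adjusted p = 2.38e-11) without overlap. Wnt9b (2.63), Thbd (1.99) and Wnt2 (1.81) rose as well. Glul, the glutamine synthetase of the hepatocytes next to the vein, was at 30.8, 29.5, 36.3 and 41.6 CPM against 14.2, 13, 18.6 and 26.3 CPM (0.96 ± 0.09), and its partner enzyme Oat rose by 1.01, whereas Cyp1a2 fell (-1.06).

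**Figure D2:**
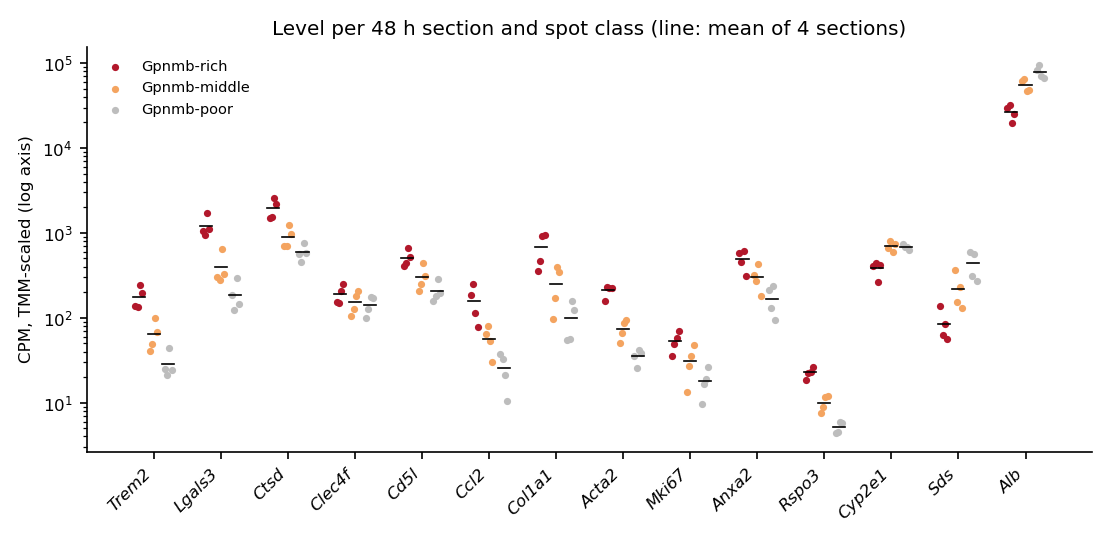
Level of 14 genes in CPM (TMM-scaled, log axis) in the Gpnmb-rich, middle and Gpnmb-poor spots of each of the 4 sections at 48 h; each point is 1 section and the line is the mean. The middle class lay between the other classes for most genes shown. It had no TMM factor of its own and was scaled by the mean factor of the other classes of its section, so its place depends in part on that choice. Trem2 ran from 133 to 244 in Gpnmb-rich and from 21.0 to 43.9 in Gpnmb-poor spots, and Clec4f points of the classes overlapped.

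Hepatocyte genes were lower throughout. All 14 listed hepatocyte genes were lower (median -1.44), and their summed level was 97133, 106559, 77520 and 98676 UMIs per 1000000 in Gpnmb-rich spots against 167319, 182566, 164331 and 165032 in Gpnmb-poor spots. Albumin (Alb) was at 29260, 31950, 19620 and 25290 CPM against 83100, 94010, 70920 and 67250 CPM (-1.58 ± 0.10, adjusted p = 4.07e-10). The urea cycle enzymes Cps1 and Ass1 differed by -2.07 and -1.83. Hepatocyte transcripts were lower in the Gpnmb-rich spots of every section but were present in all of them.

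Both of the study's zonation lists, which were drawn from these spatial data and are no independent evidence of direction, were lower. Of 12 portal genes 12 were lower (median -1.96), with Sds (serine dehydratase) at 138, 63.2, 83.7 and 56.3 CPM against 601, 308, 571 and 270 CPM (-2.36 ± 0.09, adjusted p = 5.42e-12), Cyp2f2 at -2.19 and Rida at -2.17. Pck1, the gluconeogenic enzyme of portal hepatocytes, was at 200, 75.9, 128 and 303 CPM against 1190, 469, 1017 and 1728 CPM (-2.67 ± 0.09), the largest fall by the naming rule. Of 23 central genes 22 were lower and none higher (median -1.34; with total-UMI scaling 21 lower and 1 higher). Cyp2e1, which activates acetaminophen, was at 406, 439, 261 and 424 CPM against 748, 684, 688 and 621 CPM (-0.87 ± 0.12, adjusted p = 2.56e-05). Lect2 was the central gene without a call by TMM scaling (0.15, adjusted p = 0.108); without section C it was called higher (0.25, adjusted p = 0.00127). Other genes with large falls were Etnppl (-2.39), Car3 (-2.36), Hsd17b6 (-2.33), Aldh1b1 (-2.31), the bile acid enzyme Akr1d1 (-2.24), the manganese exporter Slc30a10 (-2.21) and Ppp1r3b (-2.20).

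Genes of cell division were higher in Gpnmb-rich spots, 88 of 97 with 3 lower and a median of 1.14. Mki67 was at 35.4, 49.1, 57.6 and 70.2 CPM against 9.74, 16.7, 19.3 and 26.6 CPM, a difference of 1.58 ± 0.08 (adjusted p = 6.13e-11) without overlap. Top2a differed by 1.58 and Cdk1 by 1.43. Of 16 injury-edge epithelial genes 13 were higher and 3 lower (median 1.06). Anxa2, an annexin of migrating epithelial cells, was at 583, 456, 617 and 310 CPM against 210, 130, 237 and 93.2 CPM (1.60 ± 0.08, adjusted p = 4.65e-11), and many macrophages and fibroblasts express it too. Sprr1a, a cornified envelope gene, was at 273, 150, 334 and 32.7 CPM against 89.5, 35.4, 119 and 6.74 CPM (1.80 ± 0.11, adjusted p = 1.50e-09); section D was far below the others in both classes, so the classes overlapped. Lcn2 was lower (-0.68, adjusted p = 0.00106) and lost its call by total-UMI scaling. Of 19 genes on the study's migratory hepatocyte list 17 were higher and none lower (median 1.01). The paper drew its migratory signature from human hepatocyte nuclei, and it reported Anxa2 in leukocytes, mesenchyme and endothelia of injured mouse liver too. As a spot can hold several cell types, the count does not say which cells expressed these genes.

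Bile duct genes were divided. Of 8 cholangiocyte genes 5 were lower and 3 higher (median -0.98): Epcam (-1.65) and Krt19 (-1.75) fell, whereas Krt8 (0.60) and Krt18 (0.62), keratins that hepatocytes and other epithelia share, rose with calls that were lost without section C (adjusted p = 0.0793 and 0.0856). Red blood cell genes moved with the classes: 4 of 5 were higher and Alas2 was lower (-1.60). None of the 4 higher calls held with each section left out. The summed level of the list was 1112, 2351, 574 and 1184 UMIs per 1000000 in Gpnmb-rich spots against 313, 316, 276 and 340 in Gpnmb-poor spots. The calls for Hbb-bs (1.49 ± 0.35, adjusted p = 0.0249) and Hba-a1 (1.52 ± 0.38, adjusted p = 0.0317), which have near-identical copies, were lost without section A (adjusted p = 0.111 and 0.122) and without section D (adjusted p = 0.0969 for Hbb-bs, and no call for Hba-a1). The part of blood in the other differences was not tested.

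**Figure D3:**
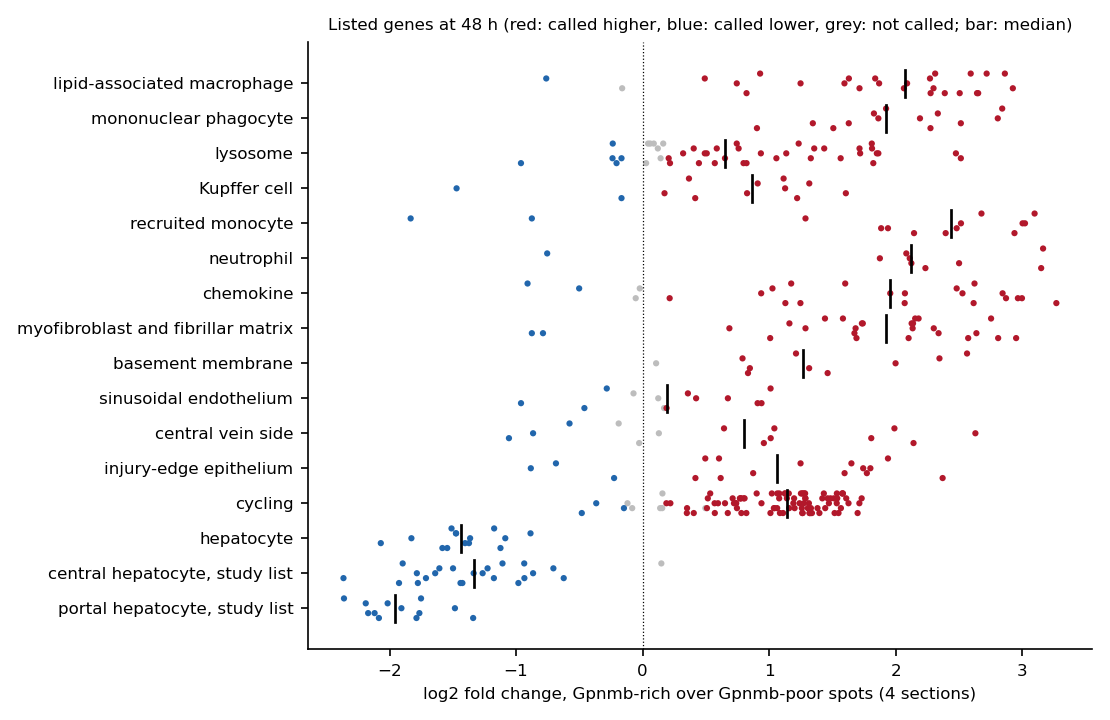
Log2 fold change of each listed gene in Gpnmb-rich over Gpnmb-poor spots at 48 h, 1 point per gene and 1 row per list, with a bar at the list's median; red points were called higher, blue lower and grey not called. The lists of lipid-associated macrophages, mononuclear phagocytes, recruited monocytes, neutrophils, chemokines and fibrillar matrix have medians of 1.92 to 2.44, with Kupffer cells at 0.87 and basement membrane at 1.27, and the general, central and portal hepatocyte lists have medians from -1.34 to -1.96, while sinusoidal endothelial genes straddle 0.

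The second comparison stayed within Gpnmb-poor spots and asked how those next to a Gpnmb-rich spot differed from those at least 3 grid steps away, so that neither group was chosen for high Gpnmb. The touching group held 455, 178, 253 and 247 spots and the far group 563, 194, 565 and 447 spots in sections A to D. No Gpnmb UMI was seen in 80.2%, 49.4%, 19.8% and 38.5% of touching spots and in 84.0%, 63.4%, 33.5% and 46.8% of far spots. Of 11657 genes tested 888 (7.62%) were higher in touching spots and 1080 (9.26%) lower, most by small amounts: 22 were higher and 22 lower by at least 2-fold. Total-UMI scaling moved the median gene from 0.0081 to 0.12 and gave 2550 higher and 399 lower. The groups did not overlap for 1.68% of genes on the higher and 1.89% on the lower side.

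Touching spots held more transcripts of central hepatocyte genes, in contrast to the Gpnmb-rich spots themselves. Cyp2e1 was at 828, 847, 723 and 721 CPM in touching and at 521, 497, 521 and 529 CPM in far spots, without overlap and with a difference of 0.59 ± 0.04 (adjusted p = 8.11e-17). Lect2 was at 294, 368, 413 and 309 CPM against 170, 229, 246 and 194 CPM (0.73 ± 0.04, adjusted p = 5.28e-23), again without overlap. Of 23 genes on the study's central list, drawn from these data, 14 were higher and 1 lower (median 0.12), and 20 were higher and none lower by total-UMI scaling. Only 6 of the 14 calls held with each section left out, and 8 were also made by DESeq2. Of 10 genes of the central vein side 9 were higher and none lower (median 0.66), including Thbd (0.68), Wnt2 (0.69), Rspo3 (0.64), Oat (0.50) and Cyp1a2 (0.37). The Rspo3 call was lost without section D (adjusted p = 0.0516). With each section left out 7 of the 9 calls held, and 3 were also made by DESeq2. DESeq2 gave no adjusted p for Rspo3, Thbd and Wnt2. The central genes Cldn2 (0.75), Avpr1a (0.77) and Rgn (0.52) rose too, as did Ly6d (0.82) and the glutathione transferase Gsta1 (0.85), which shares close relatives in the genome.

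The same spots held fewer portal transcripts. All 12 portal genes of the study's list were lower (median -0.47). Aldh1b1 was at 92.9, 113, 117 and 68.1 CPM in touching and at 270, 274, 259 and 182 CPM in far spots, without overlap (-1.35 ± 0.05, adjusted p = 7.37e-30). Sds was at 279, 152, 267 and 138 CPM against 628, 313, 579 and 250 CPM; it was lower in each section, but touching spots of sections A and C overlapped the far spots of section D (-1.06 ± 0.04, adjusted p = 1.62e-29). Etnppl (-0.94), Hsd17b6 (-0.90), Hal (-0.75), Mup20 (-0.60) and Cyp2f2 (-0.60) fell, Mup20 belonging to a family of near-identical genes. Of the 14 general hepatocyte genes 12 were lower and none higher by TMM scaling (median -0.19), and 5 were lower and 2 higher by total-UMI scaling. Bile duct genes were divided: of 7 tested cholangiocyte genes 3 were lower and 2 higher (median -0.04), and 2 were lower and 2 higher by total-UMI scaling. Epcam was at 0.361, 1.29, 0.489 and 0.309 CPM against 1.68, 1.56, 4.03 and 2.76 CPM (-2.13 ± 0.36, adjusted p = 4.77e-06), and Krt19 differed by -2.0. Epcam levels were very low, and section B differed little. DESeq2 gave no adjusted p for Epcam or Krt19. The broader epithelial keratins Krt8 (0.46) and Krt18 (0.45) were higher, the Krt18 call being lost without section C (adjusted p = 0.0707).

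Genes of dividing and injury-edge cells were higher in touching spots. Of 94 cycling genes 48 were higher and none lower (median 0.35). With each section left out 24 of the 48 calls held, and 14 were also made by DESeq2. Mki67 was at 11.4, 18.4, 23.3 and 29.9 CPM against 6.72, 13, 13 and 21.5 CPM (0.63 ± 0.09, adjusted p = 3.68e-07), higher in each section though the groups overlapped. Top2a (0.50) and Cdk1 (0.55) rose with it. Of 16 injury-edge genes 12 were higher and 1 lower (median 0.46). Anxa2 was at 244, 158, 257 and 105 CPM against 156, 95.5, 180 and 71.3 CPM (0.60 ± 0.04, adjusted p = 1.61e-17), Sprr1a was at 113, 45.1, 138 and 9.41 CPM against 63.7, 29.6, 82.2 and 4.19 CPM (0.78 ± 0.06), and Tnfrsf12a differed by 0.52. The groups overlapped for both genes because the sections differed from one another. The fetal liver gene Afp was at 23.6, 30.7, 32.8 and 23.0 CPM against 13.2, 14.8, 20.3 and 13.5 CPM (0.81 ± 0.09, adjusted p = 2.27e-11), without overlap.

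Macrophage and matrix genes were higher in touching spots too. Of 25 lipid-associated macrophage genes 16 were higher and 2 lower (median 0.31), of 13 mononuclear phagocyte genes 5 were higher and none lower, and of 43 lysosomal genes 13 were higher and 3 lower (median 0.12). With each section left out, 12 of the 16, 3 of the 5 and 8 of the 13 higher calls held. Trem2 differed by 0.46 ± 0.08 (adjusted p = 4.77e-06), Lyz2 by 0.60, Lgals3 by 0.54, Cd68 by 0.52, Chil3 by 0.70 and Mmp12 by 1.01. Ccl2 rose by 0.76, and 9 of 19 chemokine genes were higher and 3 lower. Col1a1 was at 61.8, 67.5, 184 and 137 CPM against 37.1, 39.4, 111 and 99.4 CPM (0.65 ± 0.05, adjusted p = 3.28e-16), Postn rose by 0.76, and of 25 myofibroblast and matrix genes 14 were higher and 1 lower (median 0.34). Of 12 Kupffer cell genes 2 were lower and none higher by TMM scaling, and 2 were higher and none lower by total-UMI scaling; Clec4f differed by -0.22 (adjusted p = 0.000232), and by -0.10 (adjusted p = 0.0997) with total-UMI scaling. Spp1 was lower by 0.18 on the log2 scale (adjusted p = 0.00176), a call lost without section D (adjusted p = 0.0699), by total-UMI scaling (-0.07, adjusted p = 0.282), with thinned spots (-0.15, adjusted p = 0.155) and with far spots at least 4 steps away (0.01, adjusted p = 0.961). Red blood cell genes were lower in touching spots, 4 of 5, with Hba-a2 at -0.71 and Hbb-bt at -0.71, the opposite direction to that between the Gpnmb classes.

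The levels by distance show the same order over all spots at 48 h, here in UMIs per 1000000 of all UMIs and as a description. Trem2 fell from 162 to 299 in Gpnmb-rich spots to 45.7 to 95.1 at 1 step and 20.2 to 47.4 at 2 steps, and was at 19.4 to 42.1 at 3 steps. Mki67 averaged 64.2, 32.3, 16.2 and 15.5 at 0, 1, 2 and 3 steps, and Col1a1 818, 247, 107 and 102. Cyp2e1 was at its highest one step away: 320 to 532 in Gpnmb-rich spots, 667 to 901 at 1 step and 487 to 575 at 2 steps. Lect2 ranges overlapped between Gpnmb-rich spots (364 to 434) and 1 step (357 to 465) and were lower at 2 steps (182 to 296). Sds rose from a mean of 103 through 169 and 355 to 405 at 3 steps. Beyond 3 steps Trem2, Col1a1, Mki67 and Anxa2 had somewhat higher means than at 3 steps, and Sds a lower one.

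**Figure D4:**
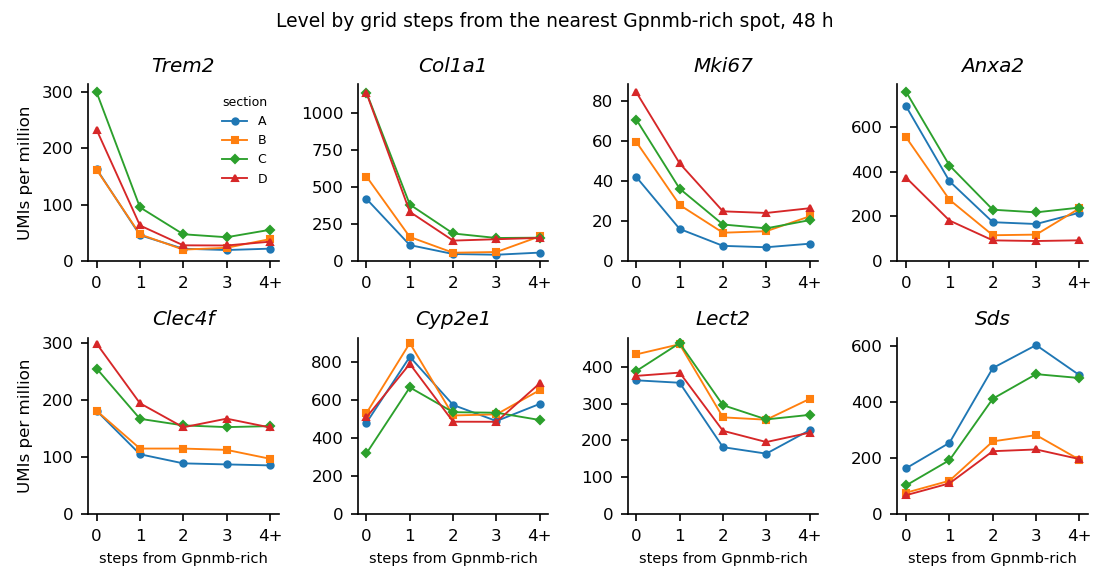
Level of 8 genes in UMIs per 1000000 (vertical axes from 0) against the number of grid steps to the nearest Gpnmb-rich spot, 1 line for each of the 4 sections at 48 h. Trem2, Col1a1, Mki67 and Anxa2 drop within 2 steps, Cyp2e1 peaks at 1 step with 667 to 901, and Sds climbs from a mean of 103 at 0 steps to 405 at 3 steps.

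The third comparison asked how Gpnmb-rich spots varied among themselves, by setting those with at least 3 Gpnmb-rich neighbours (65, 28, 60 and 54 spots) against those with none (69, 33, 50 and 49 spots). Patch spots had the higher median Gpnmb level in each section (5.60, 5.50, 12.2 and 9.81 against 4.25, 5.31, 9.63 and 6.50 UMIs per 10000). Of 9227 genes tested 121 (1.31%) were higher in patches and 277 (3%) lower, and total-UMI scaling, which moved the median gene to 0.056, gave 208 higher and 140 lower. The groups did not overlap for 1.07% of genes on the higher and 1.15% on the lower side. Leaving out section A gave 67 higher and 128 lower and leaving out section C gave 47 and 144, so only genes called with each section left out are named as changed here. By the DESeq2 Wald test 26 genes were higher and 85 lower; of the genes named as changed below, Col1a1 lost its call there (adjusted p = 0.191), and DESeq2 gave no adjusted p for Cryab, Cyr61, Tnc, Nr1i3 and Aass.

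Contractile and matrix genes led the rise in patches, 13 of 26 myofibroblast and matrix genes being higher and none lower (median 0.27), of which 8 were called with each section left out. Tagln (transgelin) was at 157, 178, 214 and 165 CPM in patch and at 73.0, 103, 118 and 146 CPM in lone spots (0.70 ± 0.10, adjusted p = 8.59e-06), without overlap. Acta2 was at 249, 318, 347 and 310 CPM against 143, 249, 258 and 246 CPM, with overlap between sections (0.46 ± 0.07, adjusted p = 4.06e-05). The small heat shock protein Cryab (0.71), the matricellular protein Cyr61 (1.23), Tnc (0.59) and Col1a1 (0.31) rose as well. Of 25 lipid-associated macrophage genes 11 were higher and none lower (median 0.23), 3 of them with each section left out. Among these, Trem2 was at 210, 207, 312 and 262 CPM against 131, 155, 284 and 208 CPM (0.36 ± 0.08, adjusted p = 0.00242), and Lgals3 differed by 0.43. Lyz2, from the mononuclear phagocyte list, differed by 0.37. All 14 hepatocyte genes were tested and 13 were lower (median -0.27), 7 of them with each section left out, with Cps1 at -0.32. Outside that list the cysteine-making enzyme Cth (-0.59), the nuclear receptor Nr1i3 (-0.66) and Aass (-0.59) were lower too. Of 83 cycling genes 2 were called higher, and neither kept its call with each section left out; Mki67 differed by -0.02 (adjusted p = 0.969), and by 0.03 under total-UMI scaling. Anxa2 (0.13, adjusted p = 0.276), Clec4f (-0.15, adjusted p = 0.346) and the 12 tested migratory hepatocyte genes had no call, nor did red blood cell genes (Hbb-bs 0.25, adjusted p = 0.347, but 0.43 with a call when section D was left out).

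The last comparison applied the same rule to the 2 sections at 36 h and tested whether the class difference itself differed between the times. At 36 h there were 401 Gpnmb-rich spots with medians of 1.94 and 1.77 Gpnmb UMIs per 10000, and 2705 Gpnmb-poor spots, none with a Gpnmb UMI, because most spots at that time had none. In this fit 1609 genes (11.6%) were higher and 1989 (14.4%) lower in Gpnmb-rich spots at 36 h. At 48 h the counts were 4752 (34.4%) and 4642 (33.6%), from more sections. Gpnmb-rich spots at 48 h had higher section medians, 4.72 to 10.7 Gpnmb UMIs per 10000. Class membership at 36 h thus rests on fewer Gpnmb UMIs, which can make class differences smaller in both directions. The part of this weaker selection in the results below was not tested. A change below is one in the class difference, not in a gene's level. The difference itself was larger on the higher side at 48 h for 869 genes (6.29%) and on the lower side for 1345 (9.73%) of 13826 tested; total-UMI scaling moved the median gene to 0.21 and gave 1954 and 827. Without section B of 36 h the counts were 221 and 579.

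Macrophage and matrix genes were already higher in Gpnmb-rich spots at 36 h, and the more strongly selected classes at 48 h differed more. The median of the lipid-associated macrophage list was 1.15 at 36 h and 2.06 at 48 h, with a difference between times on the higher side for 17 of 27 genes and on the lower side for none. Most calls of this list were lost when some section was left out. The same held for the matrix, Kupffer cell, hepatocyte and cycling lists below, and the central and portal lists lost some calls. Leaving out a 36 h section leaves 1 section at that time. Lyz2 was at 696 and 684 CPM in Gpnmb-rich and 154 and 236 CPM in Gpnmb-poor spots of the 36 h sections, a difference of 1.86, against 2.80 at 48 h (change 0.94 ± 0.16, adjusted p = 0.000597). Cd68 went from 1.53 to 2.51, Ctsd from 0.83 to 1.70 and Cd36 from 1.28 to 2.27. Spp1 showed one of the larger changes, from 0.45 to 1.59 (1.13 ± 0.14, adjusted p = 6.53e-05), and Fabp5 went from 0.42 to 1.86. Trem2 went from 1.92 to 2.63 (0.71 ± 0.18, adjusted p = 0.0132), a call lost without section B of 36 h (0.34, adjusted p = 0.457). Col1a1 went from 1.62 to 2.80 (1.18 ± 0.19, adjusted p = 0.000464), and of 26 myofibroblast and matrix genes 18 changed upward and none downward. Dpt, a matrix protein, had no class difference that passed the test at 36 h (0.08, adjusted p = 0.905) and differed by 1.88 at 48 h, but its change lost its call without section B of 36 h (adjusted p = 0.0649).

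Kupffer cell genes had a median difference of 0.08 at 36 h and 0.86 at 48 h, and 9 of 12 changed upward. Clec4f was at 84.2 and 138 CPM in Gpnmb-rich and 107 and 122 CPM in Gpnmb-poor spots of the 36 h sections, with opposite directions in the 2 sections (-0.07), and stood at 0.41 at 48 h (change 0.48 ± 0.15, adjusted p = 0.0311); this call was lost without section A of 36 h (0.23, adjusted p = 0.474), section A of 48 h (adjusted p = 0.0703) or section D of 48 h (adjusted p = 0.0672). Cd5l went from 0.53 to 1.31.

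The class differences of hepatocyte genes moved in the opposite sense and were also larger in size at 48 h. The median of the hepatocyte list went from -0.75 to -1.45, with 13 of 14 genes changing downward, that of the study's central list from -0.64 to -1.35 (19 of 23) and that of its portal list from -1.13 to -1.97 (12 of 12). Alb went from -0.83 to -1.59 (-0.77 ± 0.15, adjusted p = 0.00147), a call lost without section B of 36 h (adjusted p = 0.0622). Cps1 went from -0.96 to -2.08, Sds from -1.29 to -2.37, Pck1 from -1.32 to -2.68 and Car3 from -0.84 to -2.37. The early response gene Egr1 was higher in Gpnmb-rich spots at 36 h (0.66) and lower at 48 h (-0.93; change -1.59 ± 0.23, adjusted p = 0.000156), and the fatty acid oxidase Cyp4a10 went from 0.33, without a call, to -1.24. Cycling genes were higher at both times, 32 of 97 at 36 h, and 15 changed upward. Mki67, at 8.42 and 9.37 CPM against 5.42 and 3.02 CPM at 36 h, gave 1.08 and 1.57 (change 0.49 ± 0.26, adjusted p = 0.235), and Anxa2 gave 1.21 and 1.59 (0.38 ± 0.22, adjusted p = 0.311). Neither change passed the test. With no filter on low counts the Anxa2 change passed it (0.38, adjusted p = 0.0267). Both changes depended on the 36 h section kept. Without section A of 36 h they were 0.83 for Anxa2 and -0.06 for Mki67, and without section B -0.11 and 0.94.

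**Figure D5:**
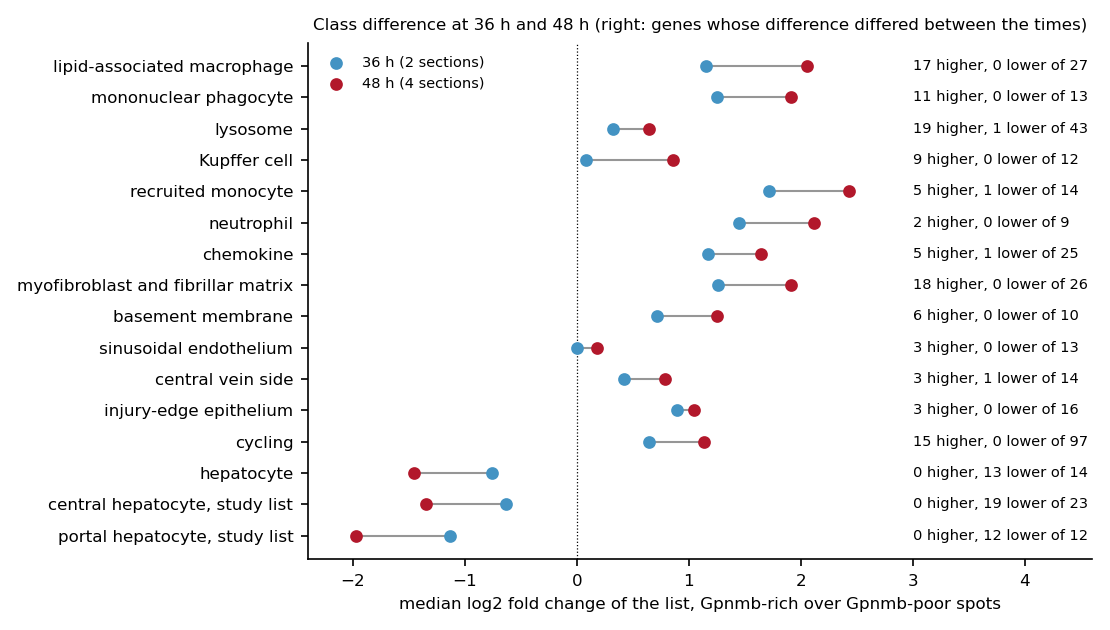
Median log2 fold change of each gene list in Gpnmb-rich over Gpnmb-poor spots at 36 h (blue, 2 sections) and 48 h (red, 4 sections); the text at the right gives how many genes of the list had a class difference that differed between the times. The lipid-associated macrophage median moved from 1.15 to 2.06, the Kupffer cell median from 0.08 to 0.86 and the hepatocyte median from -0.75 to -1.45.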

How the data were processed

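Frozen liver sections were placed on 10x spatial 3' v1 slides. Per the labels and the methods, the authors aligned reads to mm10 with Space Ranger 1.0.0 and used Seurat 4.1.1 downstream; the deposited files hold raw UMI counts per gene and spot, with no normalization, and spot positions. The spot filter followed the methods: under tissue, 800 genes or more, and a mitochondrial UMI share of 20% or less. Barcodes name array positions, so sections share them by construction.

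UMIs were summed per section and class, the Gpnmb row was removed, and the sums were tested with edgeR 4.0.16 (R 4.3.3; filterByExpr, TMM, robust glmQLFit, two-sided glmQLFTest, section as block, Benjamini-Hochberg over all genes tested, threshold 0.05). Both classes come from the same section, so the section pairs them; section letters do not pair 36 h with 48 h. A class needed at least 20 spots in a section. Alternatives were DESeq2 1.42.0, other scalings, no count filter, no block, leaving out each section, other class limits and spots thinned to 5000 UMIs. The fit was tested on simulated data in which few genes changed, as many up as down. Between the Gpnmb classes 69.7% of genes were called, so that simulation does not test the scaling there.

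The spots, the gene lists and the comparisons were chosen with earlier results of these data known. Named genes follow a rule: the 15 called genes with the largest rise and the 15 with the largest fall in each comparison (at least 20 CPM in the higher class, same sign in every section), members illustrating each of 30 lists (532 genes, all found in the files; those too low to test are left out of the counts), and Trem2, Spp1, Anxa2, Mki67, Col1a1 and Clec4f throughout; the text gives a selection of them, and some genes are not reported here. The sections at 0 h and 24 h were used for levels only. The staining images of the sections were not analysed here.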

Additional observations from a re-analysis of the deposited data

Results flagged for a closer look

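In 7 of 226 groups of 4 section values checked with Dixon's ratio (critical value 0.829), 1 section stood far from the other 3. Chance flags about 1 in 20 groups, or 11.3 of 226. Acta2 in Gpnmb-rich spots of section A was at 159.7 CPM with the others at 224.3 to 233; Gla and Rida in Gpnmb-rich spots of section C were at 30.65 CPM (others 16.91 to 18.31) and 193.2 CPM (others 297.9 to 317.7). C6 and Oat in Gpnmb-rich spots of section D were at 55.85 CPM (others 23.71 to 26.08) and 79.01 CPM (others 63.99 to 65.6). In the Gpnmb-poor spots of section C, Basp1 was at 11 CPM (others 5.325 to 5.529) and Thbd at 11.37 CPM (others 7.261 to 7.707).

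Of 22 genes named in the text for the comparison of times, 19 differed by the interaction test. Dpt, Fabp5, Col6a3, Egr1, Cyp4a10, Car3 and Pck1 were named for a large called change in that same test. The count was therefore partly fixed in advance and is no result about these genes as a set. Over all 13826 genes tested, 2214 (16%) differed. The log2 difference at 48 h minus that at 36 h was 0.7107 for Trem2, 1.134 for Spp1, 1.183 for Col1a1, 0.4763 for Clec4f, 0.9413 for Lyz2, 0.9733 for Cd68, 0.8729 for Ctsd, 0.9877 for Cd36, 0.7811 for Cd5l, 1.805 for Dpt, 1.435 for Fabp5 and 1.279 for Col6a3. It was -0.7666 for Alb, -1.123 for Cps1, -1.085 for Sds, -1.588 for Egr1, -1.565 for Cyp4a10, -1.532 for Car3 and -1.365 for Pck1.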

How the results depend on the processing

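Counts of called genes moved with scaling, depth and single sections, in this order of higher and lower. Between the Gpnmb classes, total-UMI scaling gave 8691 and 1859 and thinned spots 2984 and 2931, and leaving out 1 section gave 4233 to 4345 and 4139 to 4294. Near Gpnmb-rich spots, total-UMI scaling gave 2550 and 399, the DESeq2 Wald test 242 and 581, far spots at least 4 steps away 295 and 474, thinned spots 276 and 442, and leaving out 1 section 515 (section A; 548 without C) to 906 and 724 to 1084. For 48 h against 36 h, total-UMI scaling gave 1954 and 827, DESeq2 532 and 1063, the top 5% of spots 477 and 963, and leaving out 1 section 221 to 822 and 579 to 1353. For patches, total-UMI scaling gave 208 and 140, DESeq2 26 and 85, and leaving out 1 section 47 (section C) to 126 and 128 (section A; 182 without D) to 289. The share of neighbours that were Gpnmb-rich, 27.02% as a mean of sections, was 17.13% with the top 5% of spots and 41.11% with the top 20%.

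Without the section block, edgeR called 3780 higher and 3608 lower between the Gpnmb classes, and 0 and 0 in the other 3 comparisons (653, 1300 and 379 genes at an unadjusted p under 0.05). Of the genes named between the classes, 8 lost their call: Clec4f, Ctsl, Cxcl1, Krt8, Krt18, Lcn2, Sprr1a and Tfe3. Dropping the pairing of classes within a section leaves the spread between sections in the error.

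Directions turned for Ctsl between the classes by total-UMI scaling (0.3104) and for Spp1 with far spots at least 4 steps away (0.0109). The change over time turned for Anxa2 without section B of 36 h (-0.1097, up to 0.8256 without section A of 36 h). That of Mki67 turned without section A of 36 h (-0.0572, up to 0.9372 without section B of 36 h). In patches Mki67 turned by total-UMI scaling (0.0259) and without section B (0.0256, down to -0.0501 without section A). Apart from Ctsl, no value passed the test in the setting where it turned. The cause was not tested. Patches of at least 4 Gpnmb-rich neighbours were not run, as each section had 10 to 14 such spots, under the minimum of 20. Sections of 1 mouse per time, 2 of them at 36 h, set the precision of all tests.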
